A study of Mus musculus with 36 samples.

Results

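The liver programme of young wild type mice was described by setting 5-month wild type liver against the mean of 5-month wild type skeletal muscle and white adipose tissue. The comparison used 9 of the 36 arrays in the series, 3 for each of the 3 tissues. It covered every probe set that carried 1 gene symbol, 21789 of 35556, which stand for 19938 genes. Where more than 1 probe set named a gene, the brightest over these 9 arrays stood for it.

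The study asked how the loss of 1 copy of the proto-oncogene Myc affects male C57Bl/6 mice at 5 and 24 months. The liver group (5 months, wild type, RNA of 6 males pooled) was compared with the muscle and the adipose groups of the same age, genotype and animals. Further cohorts, each giving liver, muscle and adipose, were used for comparison: 24-month wild type males (5 mice), 5-month Myc+/- males (5 mice) and 24-month Myc+/- males (8 mice). Each of the 12 pools was a single RNA mixture, hybridised in triplicate to Affymetrix Mouse Gene arrays. The labels name no treatment, and they give wild type mice no genetic change. The muscle and the adipose depot sampled are not named in the labels.

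Because the 3 arrays of a group share 1 RNA mixture, the spread between them is technical, and p-values over arrays say nothing about differences between mice. A gene was called in the 5-month wild type pools when limma gave an adjusted p under 0.05 over arrays and the difference was at least 2-fold, that is 1 on the log2 scale. The spread between cohorts of different mice entered a second fit, over the pool means of the 3 other cohorts (9 pools), in which the 5-month wild type pools had no part. Values are log2 levels by robust multi-array averaging (RMA). Over the genes on the 9 arrays the lower quartile was 6.12, the median 7.51 and the upper quartile 9.10. The files used here give no detection call. Whether levels below the lower quartile lie above background is not known, and a contrast against them may be too small. In whole tissue, fewer cells of a type and less RNA per cell cannot be told apart.

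The liver is built mainly of hepatocytes, with resident macrophages (Kupffer cells), sinusoidal endothelial cells, stellate cells and bile duct cells. Hepatocytes make most plasma proteins, convert ammonia to urea, make glucose, ketone bodies and bile acids, and clear drugs and steroids with cytochrome P450 enzymes and conjugating enzymes. Their genes are controlled by a network of transcription factors that includes HNF1, HNF4A, the FOXA factors and C/EBP proteins. Muscle and adipose tissue burn and store fuel that the liver supplies, and use different isoforms for several of the same reactions.

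Promoter sequences are shown for 6 genes that were higher in liver, as examples of letters whose frequency is described further on. Of 18 promoters of such genes that were read, 10 held 1 of 5 motifs searched in the bases upstream and 8 held none, and the 6 were picked from the 10 for holding one. Each line gives the 120 bases upstream of the RefSeq start (assembly GRCm38.p6), 5′ to 3′ on the gene's strand. Capitals mark the letters GTTAAT (a core of the HNF1 site) or its reverse complement ATTAAC in the first 4 and TATAAA (the TATA box) in the last 2.
Ugt2a3, chr5:87337196-87337315, minus strand: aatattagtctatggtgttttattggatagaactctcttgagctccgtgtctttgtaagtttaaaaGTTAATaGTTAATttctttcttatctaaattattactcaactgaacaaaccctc
Slco1b2, chr6:141629398-141629517, plus strand: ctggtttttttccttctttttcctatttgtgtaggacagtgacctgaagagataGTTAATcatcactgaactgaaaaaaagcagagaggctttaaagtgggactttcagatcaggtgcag
Alb, chr5:90460750-90460869, plus strand: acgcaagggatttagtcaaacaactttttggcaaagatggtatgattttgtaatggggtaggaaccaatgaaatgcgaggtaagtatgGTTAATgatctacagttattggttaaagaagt
Fgb, chr3:83049864-83049983, minus strand: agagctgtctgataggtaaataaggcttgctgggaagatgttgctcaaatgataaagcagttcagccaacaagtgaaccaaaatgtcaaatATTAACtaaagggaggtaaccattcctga
Cyp2c67, chr19:39649043-39649162, minus strand: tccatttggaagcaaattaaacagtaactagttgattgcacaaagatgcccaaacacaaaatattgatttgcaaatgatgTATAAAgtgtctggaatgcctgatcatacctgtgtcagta
Cyp2e1, chr7:140763699-140763818, plus strand: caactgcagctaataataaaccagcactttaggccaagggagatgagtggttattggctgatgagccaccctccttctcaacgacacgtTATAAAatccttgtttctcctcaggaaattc

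In the 5-month wild type pools, 1504 genes were higher in liver (7.54% of the genes) and 2105 were lower (10.6%). Over probe sets the counts were 1570 higher (7.21%) and 2275 lower (10.4%) of 21789. The differences that favoured liver were larger: 339 genes were at least 16-fold higher and 79 at least 16-fold lower, and 135 against 5 passed 64-fold. Against muscle alone, 1910 probe sets were higher (8.77%) and 2592 lower (11.9%). Against adipose alone, 1515 were higher (6.95%) and 2262 lower (10.4%). Of the 1504 genes higher in liver, 1164 were at least 2-fold above each tissue (5.84% of the genes), 268 were so above muscle only and 72 above adipose only. Of the 2105 lower genes, 1158 were at least 2-fold below each tissue (5.81% of the genes). Over probe sets, 1205 lay above both tissues (5.53%) and 1229 below both (5.64%). The balance of directions depends on the scaling. With arrays centred on their median, 1849 probe sets were higher and 1901 lower, and 1408 lay above both and 1003 below both. With arrays centred on the proteasome and upkeep genes, 1663 were higher and 2137 lower, and 1297 lay above both and 1134 below both. For 61 genes the liver lay above one tissue and below the other, 28 of them above muscle and below adipose. The 2-fold limit ran between Siglece and Myo6, just past it, and Gsr and Enpep, just short of it, all at 1.00 to 2 decimals. On the lower side it ran between B330016D10Rik and Sorcs1, just past it, and Fam219a and Snx17, just short of it, all at a contrast within rounding of that limit.

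The other cohorts gave values from different mice. In the fit over the 3 other cohorts, 1484 of the 1504 higher genes (98.67%) were higher with an adjusted p under 0.05 (limma), against 21.6% of all probe sets. Of the 2105 lower genes, 2075 (98.57%) were lower there, against 29.5% of all probe sets. With the 2-fold limit applied in each of the 3 other cohorts, 1279 of the higher genes (85.04%) and 1492 of the lower genes (70.88%) passed it in the same direction in all 3. With all 12 pools fitted together, 5670 probe sets were higher (26%) and 7063 lower (32.4%) in liver at an adjusted p under 0.05 (limma). The median contrast of the higher genes was 2.05 in 5-month wild type, 2.05 in 24-month wild type, 2.13 in 5-month Myc+/- and 2.09 in 24-month Myc+/- mice. For the lower genes it was -1.66, -1.46, -1.69 and -1.43 in the same order. The medians of the lower genes were thus closer to 0 at 24 months in both genotypes.

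**Figure D1:**
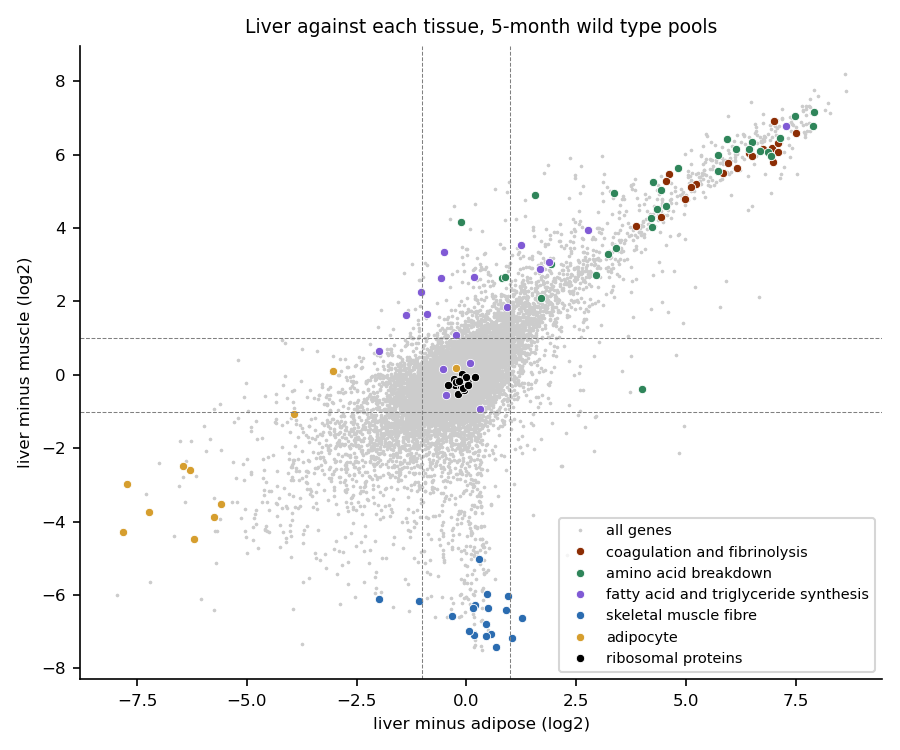
Difference of liver from adipose (horizontal axis, log2) and from muscle (vertical axis, log2) in the 5-month wild type pools, 1 point per gene (19938), with members of 6 lists in colour and dashed lines at 2-fold. Coagulation and most amino acid genes lie at the upper right, skeletal muscle fibre genes at the bottom near 0 against adipose, adipocyte genes at the left, and ribosomal protein genes at the centre.

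Marker genes went with the labelled tissues. All 11 genes that define hepatocytes were higher in liver. Their summed level, as the log2 of summed linear values, was 17.64 to 17.65 in liver arrays. It was 12.82 to 12.85 in muscle and 14.14 to 14.18 in adipose arrays. Such a sum rests on its brightest members: in adipose Cyp2e1 alone read 13.95. The list median was 14.12 in liver, against 8.32 in muscle and 7.58 in adipose. All 18 skeletal muscle fibre genes were brightest in muscle, with a summed level of 11.54 to 11.79 in liver, against 18.10 to 18.17 in muscle and 11.76 to 11.86 in adipose. For the 11 adipocyte genes the summed level was 14.55 to 14.57 in liver, against 15.11 to 15.17 in muscle and 17.14 to 17.22 in adipose. In liver Car3 alone read 14.40. The list median was 7.52 in liver, against 10.30 in muscle and 13.45 in adipose. Some liver genes also read well above the median level in the other tissues. Albumin (Alb), at 14.73 to 14.80 in liver, still read 10.91 to 10.97 in muscle and averaged 9.93 ± 0.06 in adipose arrays (SD, n = 3). Across the 4 cohorts Alb ranged from 8.78 to 11.14 in muscle pools and from 9.93 to 11.72 in adipose pools, while liver pools held 14.43 to 14.82. The source of this signal was not tested. Adipoq, which encodes the adipocyte hormone adiponectin, read 10.29 in the young wild type muscle pool, and the part of adipose cells in the muscle levels was not tested.

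The 15 genes with the largest contrasts were mostly enzymes and transporters of detoxification. Cyp2c67, a cytochrome P450 of the 2C family, had 12.60, 12.58 and 12.54 in liver arrays, against 4.63, 4.27 and 4.24 in muscle and 3.92, 3.97 and 3.96 in adipose arrays. Its contrast was 8.41 (SE 0.10), a 339-fold difference, with no overlap between groups, and over the 3 other cohorts it was 7.89 (limma adjusted p = 9.53e-09). Neighbouring Cyp2c genes are close in sequence, so their probe sets may share signal. Ugt3a1, a UDP-glycosyltransferase, had 12.02, 11.99 and 12.00 in liver, against 4.49, 3.71 and 4.54 in muscle and 3.71, 4.19 and 4.38 in adipose arrays. Its contrast of 7.84 (SE 0.16) was 7.54 in the 3 other cohorts (limma adjusted p = 3.24e-08). The others of this group included Sult2a8 (7.82), a sulfotransferase, Ugt2b1 (7.81) and Ugt2a3 (7.49), glucuronosyltransferases, Cyp4a12a (7.71) and Cyp4a12b (7.57), fatty acid hydroxylases with near-identical sequences, and Akr1c6 (7.67), a steroid dehydrogenase. Gm21286, a long noncoding RNA gene on chromosome 4, ranked second at 8.20 (SE 0.16), with 12.78 to 12.84 in liver, against 4.54 to 5.67 in muscle and 4.11 to 4.24 in adipose arrays. Over all 15 genes the liver arrays read 11.81 to 13.90, and the arrays of the other tissues read at most 6.72.

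**Figure D2:**
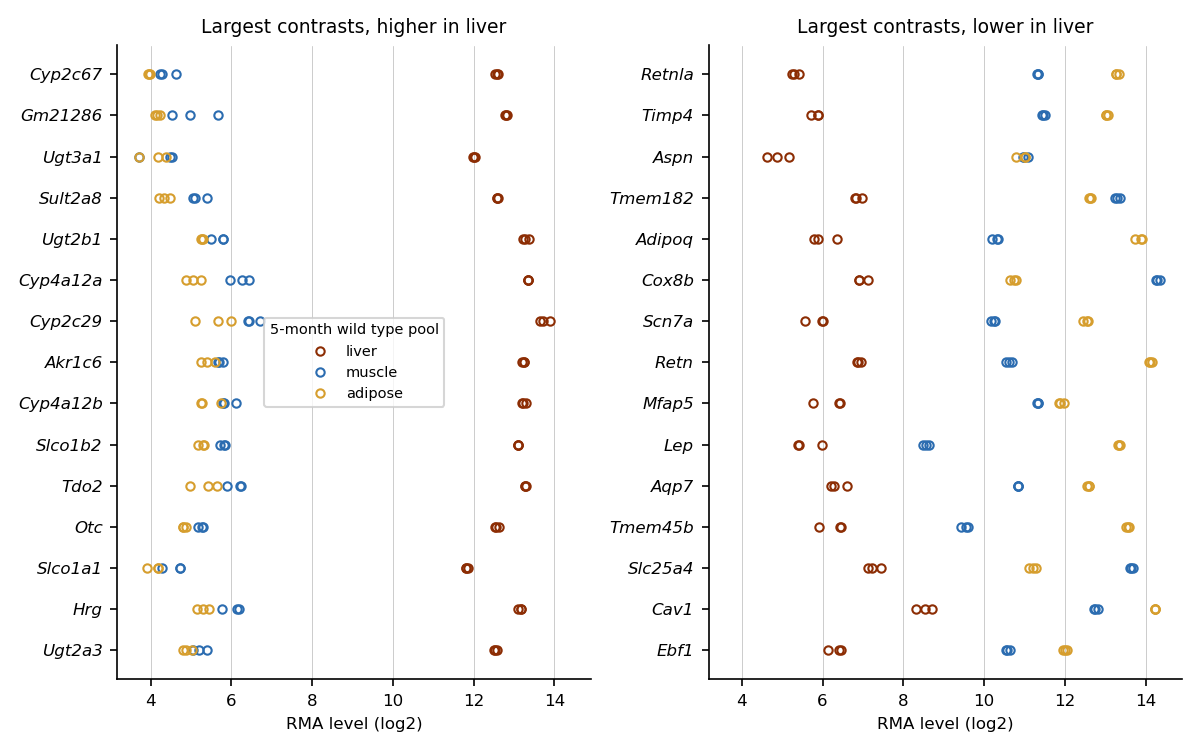
RMA level (log2) on each of the 9 arrays for the 15 genes with the largest contrasts higher in liver (left) and lower in liver (right), coloured by tissue. Every liver array stands above the other tissues on the left and below them on the right.

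Secreted plasma proteins formed the brightest part of the programme. Of 24 measured carrier and inhibitor proteins 23 were higher in liver, with a median contrast of 6.21 beside 0.03 over all genes. Hrg, the histidine-rich glycoprotein, had 13.18, 13.09 and 13.18 in liver arrays, against 6.13, 6.18 and 5.76 in muscle and 5.30, 5.15 and 5.44 in adipose arrays. Its contrast was 7.49 (SE 0.09). Serpina6 (7.29), the carrier of corticosteroids, Azgp1 (7.02), Apoh (6.81), Mug1 (6.80) and Ambp (6.75) followed, while Alb had a contrast of 4.32 (SE 0.04). Liver did not stand 2-fold above adipose for every secreted protein. Haptoglobin (Hp) was at 13.42 in liver, against 9.45 in muscle and 13.33 in adipose. Transferrin (Trf) was at 14.38 in liver, against 10.82 in muscle and 13.63 in adipose, and the retinol carrier Rbp4 at 14.35, against 9.36 and 13.43. A1bg, at 5.59 in liver, against 5.27 in muscle and 5.36 in adipose, was the member that was not called.

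All 19 coagulation and fibrinolysis genes were at least 2-fold above each tissue, with a median contrast of 5.91. Fgg, the fibrinogen gamma chain, had 14.31, 14.31 and 14.29 in liver arrays, against 7.72, 7.69 and 7.71 in muscle and 6.57, 7.03 and 6.78 in adipose arrays. F9, coagulation factor IX, had 11.14, 10.98 and 11.23 in liver, against 4.17, 4.02 and 4.44 in muscle and 4.06, 4.25 and 4.05 in adipose arrays. Neither gene's groups overlapped. Their contrasts were 7.05 (SE 0.07) and 6.96 (SE 0.11). The inhibitors Serpind1 (6.71) and Serpinc1 (6.23), the fibrinolytic zymogen Plg (6.56) and prothrombin F2 (6.46) lay in the same range. F7 had the smallest contrast of the list at 3.95.

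Complement divided by tissue. Of 18 genes 17 were higher in liver (median contrast 4.77), and 14 were 2-fold above each tissue. The terminal components C9 (7.41), Hc (complement C5, 7.12) and C8b (6.59) were among those above each tissue. C9 had 12.72, 12.78 and 12.74 in liver, against 5.57, 5.70 and 5.71 in muscle and 4.97, 5.18 and 4.87 in adipose arrays. The 4 genes that were not were C4b, C2, C1s1 (1.39) and Cfp. C4b (1.85) was at 12.72 in liver, against 9.42 in muscle and 12.31 in adipose. C2 (1.31), a serine protease of the classical pathway, was at 10.51 in liver, against 7.68 in muscle and 10.72 in adipose. Cfp, the properdin gene, known for expression in leukocytes, was not called at 0.16.

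Among acute phase genes, which inflammation induces in liver, 8 of 10 were higher (median 4.04). Saa4 (7.23) and Crp (6.91) had the largest contrasts. Orm1 was at 13.78 in liver, against 8.52 in muscle and 12.81 in adipose, and Saa3, known as an extrahepatic serum amyloid, at 8.51, against 5.66 and 8.37. The median contrast of this list varied between cohorts, at 4.04 in 5-month wild type, 7.05 in 24-month wild type, 5.73 in 5-month Myc+/- and 4.94 in 24-month Myc+/- mice.

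Of 16 apolipoprotein and lipoprotein genes 15 were higher in liver (median 5.37). Apob, the structural protein of very low density lipoprotein, had 13.83, 13.86 and 13.86 in liver arrays, against 7.42, 7.31 and 7.43 in muscle and 6.47, 6.65 and 6.44 in adipose arrays, a contrast of 6.90 (SE 0.06). Apoa1, of high density lipoprotein, had a contrast of 6.15 and Lcat, which esterifies cholesterol, 6.07. Apoe, also made by macrophages and adipocytes, was at 14.59 in liver, against 11.65 in muscle and 13.62 in adipose, and its contrast was 1.96. Pltp, the phospholipid transfer protein, was at 10.78 in liver, against 10.62 in muscle and 11.97 in adipose (-0.52, not called).

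Bile acid synthesis and transport genes were all higher, 18 of 18, with a median contrast of 5.68. Slco1b2, an uptake transporter of organic anions, had 13.09, 13.10 and 13.09 in liver arrays, against 5.72, 5.85 and 5.82 in muscle and 5.31, 5.29 and 5.18 in adipose arrays, a contrast of 7.57 (SE 0.07). The basolateral bile acid transporter Slc10a1 (7.05), the canalicular export pump Abcb11 (6.85) and the rate-limiting enzyme of bile acid synthesis Cyp7a1 (6.59) were also higher. Abcb4, a phospholipid exporter, was the member that did not stand 2-fold above both tissues: 11.58 in liver, against 11.04 in muscle and 6.81 in adipose.

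Cytochrome P450 genes of families 1 to 3 had the highest median of the lists, 7.20 over 13 measured members, all higher in liver. Cyp2c29 (7.70), Cyp2c70 (7.44), Cyp2a12 (7.32), Cyp1a2 (7.24) and Cyp3a11 (7.24) led the list. Cyp2e1, which oxidises ethanol and acetone, stood apart with a contrast of 1.86 (SE 0.03). Its mean was 14.37 ± 0.04 in liver, against 11.06 ± 0.06 in muscle and 13.95 ± 0.03 in adipose (SD, n = 3 arrays), so adipose came close to liver. Conjugating and other detoxifying enzymes were higher in 23 of 24 cases (median 4.85), from Ugt3a1 at 7.84 to Sult1a1 at 1.35. Gstm1, a glutathione transferase, was not called at 0.95, with 13.49 in liver, against 12.16 in muscle and 12.93 in adipose.

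Nitrogen metabolism was higher throughout. All 7 urea cycle genes (median 5.07) and all 31 genes of amino acid breakdown and the methionine cycle (median 4.75) passed, all 7 and 27 of the 31 above each tissue. Otc, ornithine transcarbamylase, had 12.62, 12.54 and 12.56 in liver arrays, against 5.27, 5.28 and 5.17 in muscle and 4.81, 4.86 and 4.81 in adipose arrays (contrast 7.54, SE 0.07). Cps1, the ammonia-fixing enzyme, had a contrast of 7.14 (SE 0.05). Tdo2 (7.54), which opens the ring of tryptophan, Mat1a (7.34), the liver form of methionine adenosyltransferase, and Hgd (7.27), of tyrosine breakdown, led the amino acid list. Some enzymes were shared with 1 of the other tissues. Got1, cytosolic aspartate aminotransferase, was at 12.92 in liver, against 13.30 in muscle and 8.90 in adipose. Cdo1, which makes cysteine sulfinate, was at 13.36 in liver, against 9.20 in muscle and 13.47 in adipose.

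Of 13 genes of gluconeogenesis, glycogen and fructose use 12 were higher in liver (median 4.16). Fbp1, fructose bisphosphatase, had 13.38, 13.47 and 13.44 in liver, against 6.11, 6.20 and 6.20 in muscle and 6.16, 6.26 and 6.30 in adipose arrays (contrast 7.22, SE 0.06). G6pc, the phosphatase that releases glucose, had a contrast of 6.86 (SE 0.08). The first committed steps were shared with adipose tissue. Pck1 had 13.15, 13.20 and 13.19 in liver arrays, against 8.56, 8.53 and 8.44 in muscle and 13.10, 12.95 and 12.92 in adipose arrays, so that liver lay 4.67 above muscle and 0.19 above adipose. Pcx, pyruvate carboxylase, was at 11.88 in liver, against 9.84 in muscle and 12.35 in adipose, and was not called.

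Where liver and muscle use separate genes for the same reaction, the form known from muscle or from most tissues was usually lower in liver. Of 18 genes listed as such partners 12 were lower, 2 were higher (Acsl5 at 2.99 and Adh5 at 1.97) and 4 were not called, with a median of -2.83. The list also holds genes such as Lpl and Oxct1, for which no liver partner is named here. Against adipose alone the median of the list was -0.38. Gys1, the glycogen synthase of muscle, had 7.35, 7.66 and 7.41 in liver arrays, against 12.55, 12.49 and 12.52 in muscle and 10.82, 10.78 and 10.82 in adipose arrays, a contrast of -4.19 (SE 0.06). Its liver counterpart Gys2 had 11.83, 11.84 and 11.87 in liver, against 6.07, 5.73 and 5.87 in muscle and 8.62, 8.86 and 8.80 in adipose arrays, a contrast of 4.52 (SE 0.07). The pairs were thus reversed. By the sign of the contrast, the same held for the pyruvate kinases Pklr (4.88) and Pkm (-3.35) and the phosphorylases Pygl (2.69) and Pygm (-3.38). It also held for the fructose bisphosphatases Fbp1 (7.22) and Fbp2 (-1.39) and the glucose transporters Slc2a2 (5.72) and Slc2a4 (-4.56). Unlike Gys1, Pygm and Fbp2 were about as low in adipose (7.59 and 6.91) as in liver (7.43 and 6.76). The arginases differed: Arg1 had a contrast of 6.14 while Arg2, at 6.16 in liver, against 5.55 in muscle and 6.52 in adipose, was low in every tissue. Oxct1, which lets a tissue use ketone bodies, had 6.40, 6.20 and 6.30 in liver arrays, against 10.76, 10.73 and 10.76 in muscle and 10.42, 10.45 and 10.40 in adipose arrays. Its contrast was -4.28 (SE 0.05), without overlap. Hk2 (-3.74), a hexokinase, and Lpl (-4.77), lipoprotein lipase, were also lower.

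**Figure D3:**
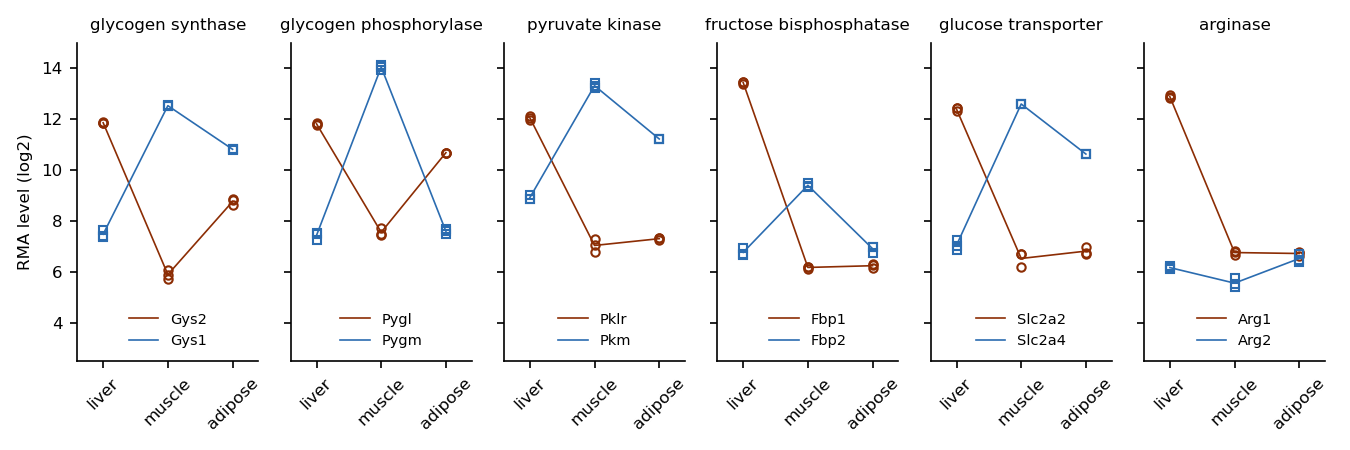
RMA level (log2) of 6 pairs of genes for the same reaction on each array of the 5-month wild type pools, circles for the liver form and squares for its partner, with lines through the means. In 5 pairs the liver form is high in liver and its partner is low there, and Arg2 is low in every tissue. Levels are comparable across tissues for 1 gene, not between genes.

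Fat metabolism showed smaller contrasts than these lists. Of 18 genes of ketone body synthesis and fatty acid oxidation 12 were higher (median 2.67), led by the P450 hydroxylases Cyp4a12a (7.71) and Cyp4a14 (6.58), the activating enzyme Slc27a2 (6.43) and the binding protein Fabp1 (6.32). The mitochondrial dehydrogenases did not differ by 2-fold: Acadm (0.07), Acadl (-0.17) and Acadvl (0.70). Cpt1a, the liver form of the gatekeeper of mitochondrial import, had a contrast of 2.17. Of 13 cholesterol synthesis genes 10 were higher (median 2.11), with Idi1 (3.31) and Cyp51 (3.02) the largest.

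Fatty acid and triglyceride synthesis was shared with adipose tissue. Of 18 genes 9 were higher than the mean of the other tissues (median 0.82), but 5 stood 2-fold above each, and the median was 2.05 against muscle and -0.08 against adipose. Elovl2, which elongates polyunsaturated fatty acids, stood out at 7.03, with 12.46 in liver, against 5.67 in muscle and 5.18 in adipose. The desaturases Fads2 (3.35) and Fads1 (2.47) followed. Fasn, fatty acid synthase, was at 12.84 in liver, against 10.58 in muscle and 13.87 in adipose, and Acaca, acetyl-CoA carboxylase, at 10.69, against 9.06 and 12.07. Scd1, the stearoyl-CoA desaturase, was among the brightest genes of every tissue at 14.44, against 13.35 in muscle and 14.66 in adipose.

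Of 19 liver-enriched transcription factors and nuclear receptors 16 were higher in liver (median 3.88). Hnf4a had 12.65, 12.74 and 12.70 in liver arrays, against 7.08, 6.94 and 6.84 in muscle and 7.66, 7.57 and 7.50 in adipose arrays. Its contrast was 5.43 (SE 0.06) and 5.81 in the 3 other cohorts (limma adjusted p = 5.25e-08). Foxa3 (4.91), Nr1i3 (4.54), the receptor CAR of drug response, Nr0b2 (4.39), Onecut2 (4.39), Creb3l3 (4.36), Nr1h4 (4.29), the bile acid receptor, and Nr1i2 (4.22), the pregnane receptor, followed. The other FOXA genes differed by less: Foxa1 had a contrast of 2.92 and Foxa2 of 1.85. Cebpa, which adipocytes also need, had 11.82, 11.84 and 11.78 in liver, against 8.70, 8.42 and 8.55 in muscle and 11.81, 11.76 and 11.85 in adipose arrays, so that liver and adipose overlapped. Rxra (0.96), Tbx3 (0.92) and Cebpb (0.78) did not reach 2-fold.

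Of 13 iron, haem and copper genes 9 were higher (median 1.82). Hamp, encoding the iron hormone hepcidin, had 13.82, 14.06 and 13.67 in liver arrays, against 8.51, 8.44 and 8.17 in muscle and 5.82, 6.35 and 6.75 in adipose arrays (contrast 6.51, SE 0.14). Tfr2 (5.35), which senses transferrin, and Tmprss6 (4.58), which restrains hepcidin, were also higher. Hjv, the hemojuvelin gene, was highest in muscle: 11.36, 11.38 and 11.38 in liver, against 13.52, 13.46 and 13.52 in muscle and 6.58, 6.70 and 6.30 in adipose arrays. Of 15 hormone and receptor genes 11 were higher (median 1.95), from the chemotactic protein Lect2 (6.32) and the glucagon receptor Gcgr (4.93) to Igf1 (1.29). Igf1 was at 12.79 in liver, against 10.66 in muscle and 12.34 in adipose. The growth hormone receptor Ghr (0.43) and the insulin receptor Insr (0.38) did not differ by 2-fold. All 7 genes that depend on growth hormone pulses in male liver were higher (median 3.85), with the elongase Elovl3 (7.16) and the steroid dehydrogenase Hsd3b5 (7.14) the largest.

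Genes of both ends of the liver lobule were present. Of 12 pericentral genes 10 were higher (median 2.88) and of 9 periportal genes 8 (median 4.43). Pericentral examples were Rgn (6.90) and Gulo (6.65), of ascorbate synthesis, and Lgr5 (3.08), a Wnt target. Glul, glutamine synthetase, which marks the hepatocytes next to the central vein, was at 12.81 in liver, against 11.83 in muscle and 12.97 in adipose (0.41, not called). Axin2, another Wnt target, was at 7.67 in liver, against 8.04 in muscle and 8.39 in adipose. Periportal examples were Pigr (6.47), Hsd17b13 (5.97) and Hal (5.64), the histidine ammonia-lyase.

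The other cells of the liver were visible through a few of their genes. Kupffer cell genes were higher in 3 of 9 cases: Cd5l (4.93), Vsig4 (4.47) and Clec4f (3.74). Clec4f, a lectin of Kupffer cells in mice, had 10.36, 10.12 and 10.26 in liver, against 6.49, 6.67 and 6.57 in muscle and 6.70, 6.32 and 6.31 in adipose arrays. The other 6 were not called, Timd4, Marco and Folr2 of the Kupffer cell list among them. The list median was 0.57 and its lowest contrast -0.91. General macrophage genes did not differ by 2-fold, such as Adgre1 (0.17) and Cd68 (-0.64). Sinusoidal endothelial genes were higher in 7 of 10 cases, among them Clec4g (5.39), Dnase1l3 (4.06), Oit3 (3.40), Stab2 (2.78) and F8 (2.91), the gene of coagulation factor VIII. The other 3 were not called, and the lowest contrast of the list was -0.95. In the 3 other cohorts 8 of the 10 were higher and 2 lower (limma adjusted p under 0.05), beside 21.6% and 29.5% of all probe sets. Stellate cell genes were higher in 4 of 8 cases and lower in 2. Lrat, which makes retinyl esters, had 10.94, 11.05 and 11.11 in liver, against 6.50, 6.39 and 6.29 in muscle and 6.33, 6.63 and 6.75 in adipose arrays, while Des (-3.60), also a muscle gene, and Pdgfrb (-1.93) were lower. None of the 5 bile duct genes was higher, and Krt19 was lower at -1.40. That difference came from adipose: Krt19 was at 6.68 in liver, against 6.84 in muscle and 9.30 in adipose.

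The 15 genes with the lowest contrasts included the adipocyte hormones adiponectin, resistin and leptin. Retnla, a secreted relative of resistin, had the lowest contrast, -6.98 (SE 0.05), with 5.42, 5.30 and 5.25 in liver arrays, against 11.31, 11.33 and 11.34 in muscle and 13.26, 13.27 and 13.33 in adipose arrays. Adipoq had 5.78, 6.37 and 5.89 in liver, against 10.32, 10.21 and 10.35 in muscle and 13.89, 13.74 and 13.91 in adipose arrays (-6.06, SE 0.09). Timp4 (-6.42), a metalloproteinase inhibitor, Scn7a (-5.53), Retn (-5.48), the hormone resistin, Lep (-5.35), the hormone leptin, Aqp7 (-5.35), a glycerol channel, and Cav1 (-4.99), the coat protein of caveolae, were lower than in each tissue. Cox8b, a heart and muscle form of a cytochrome oxidase subunit, had 6.90, 6.90 and 7.12 in liver, against 14.28, 14.27 and 14.37 in muscle and 10.79, 10.63 and 10.75 in adipose arrays.

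Of 11 adipocyte genes 10 were lower (median -4.55), and Car3, carbonic anhydrase 3, was near the top of the scale everywhere, at 14.40 in liver, against 14.22 in muscle and 14.64 in adipose. All 18 muscle fibre genes were lower than the mean of the other tissues (median -3.14). That difference came from muscle, where the median was -6.50. Against adipose it was 0.45. Ckm, muscle creatine kinase, was at 8.55 in liver, against 14.58 in muscle and 7.61 in adipose. Matrix genes were lower in 16 of 19 cases (median -2.07), with Lama2 (-3.52), Nid1 (-3.43) and Lama4 (-3.22) of the basement membrane the lowest. Fn1, fibronectin, which hepatocytes secrete into plasma, was at 13.43 in liver, against 11.97 in muscle and 13.09 in adipose (0.90, not called).

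Of 18 cytoskeleton and contact genes 7 were higher and 9 lower. The higher ones were the gap junction genes Gjb2 (5.54) and Gjb1 (5.41), the keratins Krt8 (4.02) and Krt18 (3.92), the cadherins Cdh2 (3.90) and Cdh1 (2.69) and the tight junction gene Cldn1 (3.15). The lower ones included Vim (-2.99), Acta2 (-3.55), Cav2 (-3.97) and Cavin1 (-3.93), known from mesenchymal, endothelial and fat cells, but also the tubulin gene Tuba1a (-3.47) and Ezr (-1.12), which encodes the membrane linker ezrin of epithelia.

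Genes of general cell function served as a comparison. None of 19 ribosomal protein genes (median -0.20) and none of 24 oxidative phosphorylation genes (median -0.15) differed by 2-fold. Centring each array on its median raised all contrasts by 0.16 and moved these medians to -0.04 and 0.01, so no direction is given for either list in the 5-month wild type pools. In the 3 other cohorts 15 of the 19 ribosomal protein genes were lower in liver with an adjusted p under 0.05 (limma), beside 29.5% of all probe sets, and 0 were higher. The list's median there was -0.47. With arrays centred on their median 9 were lower, with a median of -0.33, and with upkeep centring 14, with a median of -0.56, alternatives chosen after seeing the data. Liver lay below muscle and above adipose for oxidative phosphorylation, with medians of -0.64 and 0.40. None of the 25 proteasome and upkeep genes was higher, and Reep5 was lower (-2.63). Of 23 genes of protein folding and secretion in the endoplasmic reticulum 7 were higher by 2-fold (median 0.78), led by the protein disulfide isomerase Pdia4 (1.84). In the 3 other cohorts 22 of the 23 were higher with an adjusted p under 0.05 (limma), beside 21.6% of all probe sets, and 17 with upkeep centring. None of 12 clock genes was called. Of the 9 genes of Myc and its partners none was called either. Myc, the gene deleted on 1 allele in the Myc+/- cohorts, had 8.61, 8.43 and 8.68 in liver arrays, against 9.00, 8.97 and 8.91 in muscle and 9.66, 9.88 and 9.56 in adipose arrays, a contrast of -0.76 (SE 0.07).

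**Figure D4:**
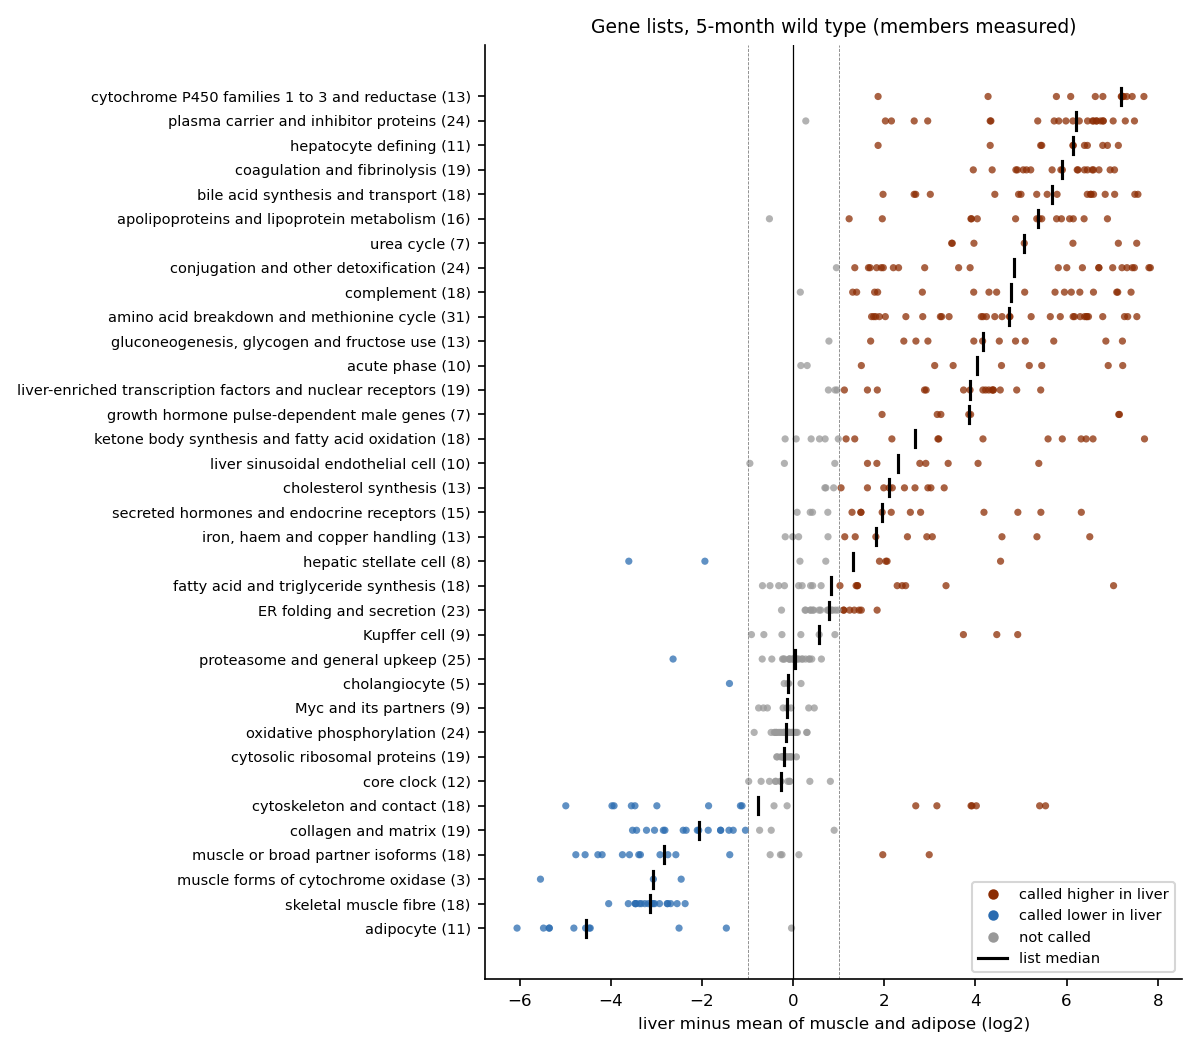
Contrast of liver with the mean of muscle and adipose (horizontal axis, log2) for each measured member of the gene lists shown. Lists are ordered by their median (black bars), with the number measured in brackets. Red points were called higher, blue points lower, and grey points were not called. Plasma protein, P450 and bile acid lists lie far to the right, and the ribosomal and oxidative phosphorylation lists lie within 2-fold of 0.

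The promoters of the strongest liver genes were poor in CpG dinucleotides. In the 250 bases upstream of 19177 RefSeq starts of measured genes the median number of CpG was 11, and 33.8% of promoters had 5 or fewer. For the 1163 promoters of genes above both tissues the median was 7 and the share 42.8%. Among the 197 promoters of the 200 genes with the largest contrasts the median was 2 and the share 83.2%. The 1166 promoters of genes below both tissues had a median of 12. Promoters of ribosomal protein genes had a median of 15, and 0 of 20 had 5 or fewer. The letters GTTAAT, read on both strands, were found in 19.3% of the promoters with the largest contrasts, 9.11% of those of genes above both tissues, 3.69% of those below both and 5.6% of all. CAAAGTCCA, a core of the HNF4 site, was found in 4.06%, 1.38%, 0.257% and 0.417% in the same order, TATAAA in 22.3%, 12%, 8.83% and 10.5%, and TGTTTAC, the FOXA core, in 5.58%, 4.13%, 2.06% and 2.67%. TATAAA was also in 26.1% of the 23 promoters of the upkeep list. Letters alone do not show binding. The median GC content was 46% in the promoters with the largest contrasts, against 56.8% in all, and motifs rich in A and T vary with it. Paralogous genes have related promoters, so the promoters are not independent of each other.

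Liver genes also lay beside each other. Of 1126 protein-coding genes above both tissues 30.9% had a neighbour that was above both, beside 11.4% of all placed genes. For genes below both tissues the shares were 17.1% and 11.8%. The longest run, 10 genes on chromosome 5, held Ugt2b34, Ugt2b1, Ugt2b36, Ugt2b5, Ugt2a3, Ugt2b38 and Sult1d1 among others. A run of 9 on chromosome 19 held Cyp2c genes from Cyp2c29 to Cyp2c70. Runs of 5 held the Akr1c genes on chromosome 13 and Ahsg, Fetub, Hrg, Kng2 and Kng1 on chromosome 16. Members of such families are paralogues whose probe sets may share signal.

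The contrast was compared between ages over the 12 pools. It differed between 24 and 5 months for 2302 probe sets (limma adjusted p under 0.05), higher at 24 months for 1559 (7.15%) and lower for 743 (3.41%). With arrays centred on the upkeep genes the numbers were 653 and 721, so the balance of directions depends on the scaling. The total was 879 to 1169 without 1 of the 4 liver pools and 1275 to 1284 without 1 of the 4 muscle pools. Without 1 of the 4 adipose pools it was 1533 to 1847. Among the genes higher in liver, 98 had a larger and 181 a smaller contrast at 24 months. Among the lower genes, 585 had a contrast nearer to 0 or above it and 49 a more negative one. Some markers of other tissues moved with age. The contrast was higher at 24 months for 2 of 8 exocrine pancreas genes and lower for 7 of 8 epidermal genes. Of 18 skeletal muscle fibre genes 3 were higher and 3 lower. Of 6 lymphocyte genes 2 were lower, and of 2 red blood cell genes 1. None of 11 adipocyte and none of 8 male genital tract genes was called. The exocrine pancreas gene Cpa1 was at 8.54 and 11.08 in the 24-month wild type and Myc+/- liver pools, against 6.77 in each 5-month liver pool. The epidermal keratin Krt5 was at 9.87 and 9.48 in the 24-month muscle pools, against 7.27 and 5.98 at 5 months. Adipoq was at 12.33 and 11.14 in the 24-month muscle pools, against 10.29 and 10.34 at 5 months, though its liver contrast was not called for age (limma adjusted p = 0.365). The part of such cells in the age differences was not tested.

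Among genes called in the 5-month wild type pools, Moxd1, of the growth hormone group, had the largest age difference. Its liver pools read 6.75 in wild type and 6.62 in Myc+/- mice at 24 months, against 9.88 and 10.68 at 5 months, while muscle pools stayed between 7.07 and 7.28. The contrast fell by 3.48 (limma adjusted p = 0.00194). Of the 7 genes of that group 4 had a lower contrast at 24 months, beside 3.41% of all probe sets. A lower contrast need not lie in liver. Elovl3, one of the 4, was at 12.20 and 13.06 in 24-month liver, against 12.76 and 13.04 at 5 months. Its muscle pools read 7.38 and 6.62 at 24 months, against 6.13 and 5.38, and its adipose pools 5.98 and 6.70, against 5.08 and 6.03. Rgs16, a regulator of G protein signalling, was at 9.14 and 9.18 in the 24-month liver pools, against 11.26 and 10.85 at 5 months, and Hamp2, the second hepcidin gene, at 9.12 and 9.17, against 11.27 and 11.12. Of the 18 fatty acid synthesis genes 8 had a lower contrast at 24 months, beside the same 3.41%. Thrsp, a lipogenic gene, was at 10.37 and 10.28 in 24-month liver, against 12.46 and 12.88 at 5 months. Elovl6 was at 11.06 and 10.78, against 11.45 and 11.99, and part of its change lay in muscle, where 24-month pools read 9.90 and 9.70, against 7.90 and 7.19. Fasn was at 12.26 and 11.75 in 24-month liver, against 12.84 and 13.05. In muscle it was at 12.30 and 11.20 at 24 months, against 10.58 and 10.01. Scd1 was at 14.34 and 14.29 in 24-month liver, against 14.44 and 14.28. In muscle Scd1 was at 14.02 and 13.68 at 24 months, against 13.35 and 12.81. Nipal1 went the other way, with 9.83 and 8.95 in 24-month liver, against 7.39 and 6.78. Dapl1 differed through the other tissues: muscle pools were at 10.28 and 9.97 at 24 months, against 8.54 and 6.07. Of the matrix genes 12 of 19 had a higher contrast at 24 months, beside 7.15% of all probe sets. For Fn1, already above 0, this meant a larger contrast and for the others one closer to 0. The list counts given here are from the fit without centring, and upkeep centring gave 653 higher and 721 lower probe sets in total. Col1a1 was at 8.31 and 8.48 in 24-month liver, against 8.29 and 8.38, and at 9.53 and 9.67 in 24-month muscle, against 11.07 and 10.73. Of the clock genes 4 of 12 had a lower and 2 a higher contrast, beside 3.41% and 7.15% of all probe sets. Dbp, an output gene of the clock, was at 7.79 and 8.57 in 24-month liver, against 10.84 and 10.45, and the hour of death is not given in the labels.

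**Figure D5:**
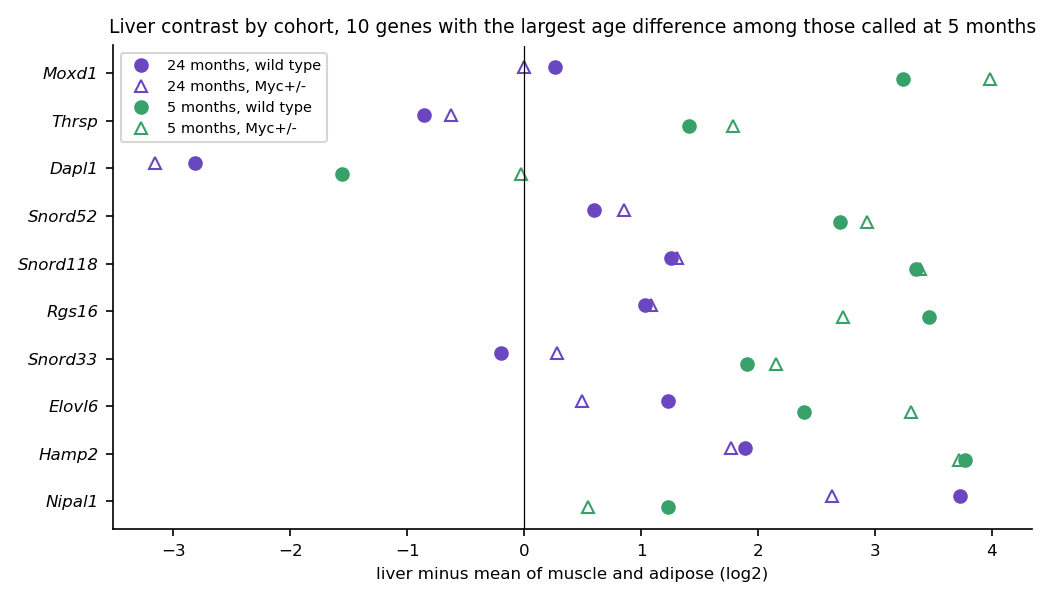
Contrast of liver with the mean of muscle and adipose (horizontal axis, log2) in each of the 4 cohorts for the 10 genes with the largest age difference among those called in the 5-month wild type pools, violet for 24 months and green for 5 months, filled circles for wild type and open triangles for Myc+/- mice. In 9 genes both 24-month cohorts lie left of both 5-month cohorts, and Nipal1 lies the other way.

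Loss of 1 Myc allele changed the contrast of no probe set past an adjusted p of 0.05 (limma, 0% in each direction). At an unadjusted p under 0.05 there were 1310, and the smallest adjusted p was 0.302. Between 0 and 29 probe sets passed when 1 pool was left out. Among genes called in the 5-month wild type pools the largest estimate was that of Cidea, a lipid droplet protein, at 1.85 (limma adjusted p = 0.390). Its liver pools were at 7.37 and 7.73 in 5- and 24-month Myc+/- mice, against 5.80 and 6.55 in wild type. Cidec, of the same family, was at 8.99 and 9.35, against 7.52 and 7.61 (1.85, limma adjusted p = 0.417).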

How the data were processed

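The deposited values are log2 expression levels per probe set. Per the submitters' processing notes, they came from RMA in Affymetrix Expression Console (version not stated). The genome build of the probe annotation is not given in the sources used here. Per the labels' protocols, RNA of 5 to 8 males was pooled in equal amounts and tissue was homogenised in 2 ways, not assigned to samples. The labels name both a 3′ IVT kit and a whole-transcript kit, so the labelling chemistry is not settled. Array medians of the 9 arrays were 6.98 to 7.07, and arrays of a pool correlated at 0.990 to 0.994. Each group had a single RNA mixture, so the number of pools limits what can be said about differences between mice.

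Probe sets with several symbols (1621) or none in the annotation table (12146) were left out. Array values and pool means were fitted with limma 3.58.1 in R 4.3.3 (eBayes with trend, Benjamini-Hochberg over all 21789 probe sets, no filter on dim ones). The array fit had 6 residual degrees of freedom, the fit over 12 pools 6 and that over 9 pools 4, both with the cohort as a block, since the same animals gave all tissues. Pools of a cohort deviated together with correlations of 0.03 to 0.44. The age and genotype fit had 3. The fits were checked on simulated data over the 21789 probe sets. Of 100 genes changed by 1.5 on the log2 scale, the array fit recovered 100, the 12-pool fit 99, the 9-pool fit 96, the age fit 93 and the genotype fit 94. Of the unchanged probe sets 0, 12, 7, 13 and 6 were called, in the same order. The simulated errors were independent and held no shared deviation of a cohort, so these numbers do not give the recovery in the measured pools. Of 664 gene list entries in 42 lists, 591 matched a symbol exactly. The members and lists were chosen with earlier results of these data known. Genes were named as the 15 largest contrasts in each direction, the leading members and exceptions of each list, all factors, markers, partner isoforms and Myc genes as far as space allowed, the 10 largest age and genotype differences among genes called in the 5-month wild type pools, and those nearest 2-fold. Cpa1, Krt5 and Dbp were picked among their lists for their age values after these were seen, as were Ngp and the small nucleolar RNAs. Alternatives were the scaling, the fold limit, a filter on dim probe sets, the reference tissue, the replicate block and leaving out arrays, pools or cohorts. RefSeq promoters (GRCm38.p6) were searched on both strands.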

Additional observations from a re-analysis of the deposited data

Results flagged for a closer look

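The liver contrast differed between 24 and 5 months for 2302 probe sets in the test of that difference over 12 pools (limma adjusted p under 0.05), among them several genes named above. Values here are the contrast at 24 months minus that at 5 months, on the log2 scale, averaged over both genotypes. Positive differences above 1 among the genes named in the report were those of Cpa1 (3.09), a digestive enzyme of the pancreas, Nipal1 (2.29), Lpl (1.84), Oxct1 (1.34), Vim (1.19), Nid1 (1.16) and Acta2 (1.15). At 24 months the liver pools held 7.22 (wild type) and 7.61 (Myc+/-) for Oxct1, against 6.30 and 6.25 at 5 months. Lpl in liver was at 10.38 and 10.04 at 24 months, against 8.58 and 8.31, so both genes, low in young liver, were higher there at 24 months.

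Smaller positive differences were found for the sinusoidal and macrophage genes Clec4f (0.94), Cfp (0.91), Clec4g (0.74) and Siglece (0.72), for the matrix and mesenchymal genes Col1a1 (0.82), Pdgfrb (0.58), Cav2 (0.55), Fn1 (0.47), Lama2 (0.45), Des (0.42) and Cavin1 (0.34), and for the muscle isoforms Hk2 (0.93), Cox8b (0.59), Pkm (0.58) and Gys1 (0.44), and for Tuba1a (0.78). Hnf4a (0.56), Axin2 (0.45), Snx17 (0.44) and Acadm (0.33) also had a higher contrast at 24 months.

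Negative differences below -1 among these genes were those of Moxd1 (-3.48), the lipogenic gene Thrsp (-2.34), Dapl1 (-2.19), Snord52 (-2.09), Snord118 (-2.09), Rgs16 (-2.03), Snord33 (-1.99), Elovl6 (-1.99), Hamp2 (-1.92), Krt5 (-1.78), Fasn (-1.60), Dbp (-1.54), Cdh1 (-1.30) and Elovl3 (-1.29). Lrat (-0.75), Gjb1 (-0.60), Acsl5 (-0.50), Fads2 (-0.49), Gcgr (-0.47), Krt18 (-0.43) and Scd1 (-0.42) had smaller ones. Genes not called at 5 months are not ranked here and some differed as much, such as Ngp (3.57), a neutrophil granule gene, and Snora74a (-2.30). Cdh1, the epithelial cadherin, was at 8.85 and 9.13 in 24-month liver, against 9.90 and 9.57 at 5 months, and at 7.92 and 7.84 in 24-month muscle, against 7.24 and 6.87.

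Probe sets outside the comparison also carried a liver signal. Of the 1621 with several symbols, 69 were at least 2-fold higher in 5-month wild type liver with an adjusted p under 0.05 (4.26%), and 61 were lower (3.76%). Of the 12146 that are not in the annotation table, 333 were higher (2.74%) and 405 lower (3.33%).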

How the results depend on the processing

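The 3845 probe sets called in the 5-month wild type pools stayed within 1.5 times that number under other scalings, filters and reference tissues, except for the fold limit: 1603 passed 4-fold and 6527 passed 1.5-fold. Above or below both tissues, 989 passed 4-fold and 4162 passed 1.5-fold. Leaving out 1 array gave 3837 to 3867. A replicate block on the technical array number gave 3845. Same-numbered arrays deviated together in 1 of 9 pairs (correlation over 0.1, range -0.11 to 0.15), so the number does not pair arrays. Leaving out 1 pool gave 879 to 1847 probe sets for age and 0 to 29 for genotype, and upkeep centring gave 1374 and 4. Against adipose alone, the sign turned for C2 (-0.22), Cdo1 (-0.11), Ckm (0.94), Thrsp (-0.52) and the muscle fibre median (0.45), and against muscle alone for Got1 (-0.39) and Hjv (-2.12), since the reference itself differs. In other cohorts it turned for Cidea in 5-month Myc+/- (0.83) and 24-month Myc+/- (0.88), Moxd1 in 24-month Myc+/- (-0.00165), Snord33 in 24-month wild type (-0.20), and Thrsp in 24-month wild type (-0.85) and 24-month Myc+/- mice (-0.62). The cause of these turns was not tested. The deposited values carry no detection call, so signal over background is not known for dim probe sets.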

Other observations

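Small nucleolar RNAs, many of which guide the modification of ribosomal and spliceosomal RNA, were looked at after their values were seen. Of 53 such genes 15 were at least 2-fold higher in 5-month wild type liver, beside 7.54% of all genes, and 0 were lower. Snord118, the U8 RNA, had 10.92, 10.87 and 10.99 in liver arrays, against 7.84, 7.79 and 7.78 in muscle and 7.58, 7.32 and 7.13 in adipose arrays. The liver excess was found in the young cohorts: the median contrast of the 53 genes was 0.54 in 5-month wild type, -0.19 in 24-month wild type, 0.65 in 5-month Myc+/- and -0.02 in 24-month Myc+/- mice. Of the 53, 34 had a lower contrast at 24 months (limma adjusted p under 0.05), beside 3.41% of all probe sets, and 0 a higher one. Their median level in liver was 7.93 in wild type and 7.62 in Myc+/- mice at 24 months, against 8.87 and 8.84 at 5 months. For the mean of muscle and adipose it was 7.87 and 7.59 at 24 months, against 7.97 and 7.83. These 2 tissues could differ: Snora74a was at 10.23 and 9.60 in 24-month muscle, against 12.29 and 12.09. In adipose Snora74a was at 12.64 and 12.14 at 24 months, against 11.95 and 11.65. Snord52 was at 7.26 and 7.16 in 24-month liver, against 9.11 and 8.84. The labels do not say which tissue was homogenised in which way, and the part of this in these values was not tested.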
